A study of Mus musculus with 36 samples.

Results

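Whole embryos exposed to ethanol in the womb were set against whole embryos exposed to nicotine, with the 24 arrays of these groups taken by their sample titles from a series of 36. All came from C57BL/6J, an inbred strain, and all were males collected at 9.5 days post coitum. The Ethanol group held 12 embryos of mothers that drank 10% (v/v) ethanol by choice. The Nicotine group held 12 embryos of mothers that drank nicotine at 100 µg/ml, given as the freebase. Both exposures ran between days 0.5 and 8.5 post coitum, so collection came after they ended. The remaining 12 embryos are the Control group, for which the labels name no drug. The labels give neither the dose that reached an embryo nor which embryos were littermates, so the p-values measure spread among these embryos only. In the main fit this is the spread over all 36 arrays left after differences between the replicate numbers 1 to 12 are removed.

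At this stage the mouse embryo is still adding trunk and tail at its hind end. Progenitor cells of the tail bud are kept by Wnt and Fgf signals and by the Cdx transcription factors, and they give rise to spinal cord and to the paraxial mesoderm that forms somites. The Hox genes of the trunk and tail switch on in sequence as the axis grows, while neural crest and mesenchyme fill the branchial arches that will form jaw and throat. Ethanol is oxidised by alcohol and aldehyde dehydrogenases, and nicotine binds ligand-gated channels built from acetylcholine receptor subunits.

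Expression was read on an Illumina bead array, in which each probe gives 1 fluorescence intensity per embryo. Of 45281 probes, 16927 reached an intensity of 32 on at least 12 of the 36 arrays, and these covered 9683 genes with a gene symbol. Differences below are Ethanol minus Nicotine in log2(intensity + 16), with the standard error (SE) of a limma fit that carries the replicate number 1 to 12 as a block. Adding 16 makes the differences of dim genes smaller than on the intensity scale, and levels of different probes are not comparable. The embryos fell into replicates 1 to 6 and 7 to 12 on the leading principal component, which held 48.1% of the variance of the 36 arrays, so the median within each of these sets is given for the lists described in detail. The meaning of the numbers is not given in the labels.

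Each of 15 measured tail bud genes had a lower mean in ethanol-exposed than in nicotine-exposed embryos. Of 13 measured branchial arch genes 10 were higher. Each of 20 measured matrix and 18 measured endothelial genes was higher too, though none of these had an adjusted p below 0.05. Throughout, lower or higher after ethanol means relative to nicotine-exposed embryos and not to Control embryos. By limma with Benjamini-Hochberg adjustment, 69 of 16927 probes (0.408%) had an adjusted p below 0.05, of which 36 (0.213%) were higher and 33 (0.195%) lower after ethanol. They named 54 genes. At the same threshold and with the same block, 0 probes passed for Ethanol minus Control and 194 (1.15%) for Nicotine minus Control. Without a threshold the ethanol mean was higher in 48.4% of genes and lower in 51.6%. With each gene read by its brightest probe, 37 of 9683 genes (0.382%) passed, 19 (0.196%) higher and 18 (0.186%) lower. The sizes were moderate, with absolute differences between 0.18 and 1.41 over the 69 probes and a median of 0.47. For each of these probes 9 to 12 of the 12 same-number pairs had the direction of the mean, and the sign was the same in both sets. The probes were chosen by these same pair differences, so this describes them and is no separate support. The intensity ranges of the groups overlapped for all 69.

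The calls rest on the pairing of embryos by number. Without the replicate block 0 probes passed, the smallest adjusted p was 0.131, and 834 probes (4.93%) had an unadjusted p below 0.05, against 2355 (13.9%) with the block. With only the 2 sets as the block 0 probes passed as well, with 1520 (8.98%) at an unadjusted p below 0.05, and the blocked fit of the 24 arrays alone gave 0, with 2509 at that level. In single fits that left out replicate 2, 6 or 8 the count was also 0, and without replicate 5 it was 178. The 69 probes kept their sign in every one of the 12 fits that left out a replicate. These fits reuse the arrays on which the probes were chosen, so the kept sign is no separate support.

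**Figure D1:**
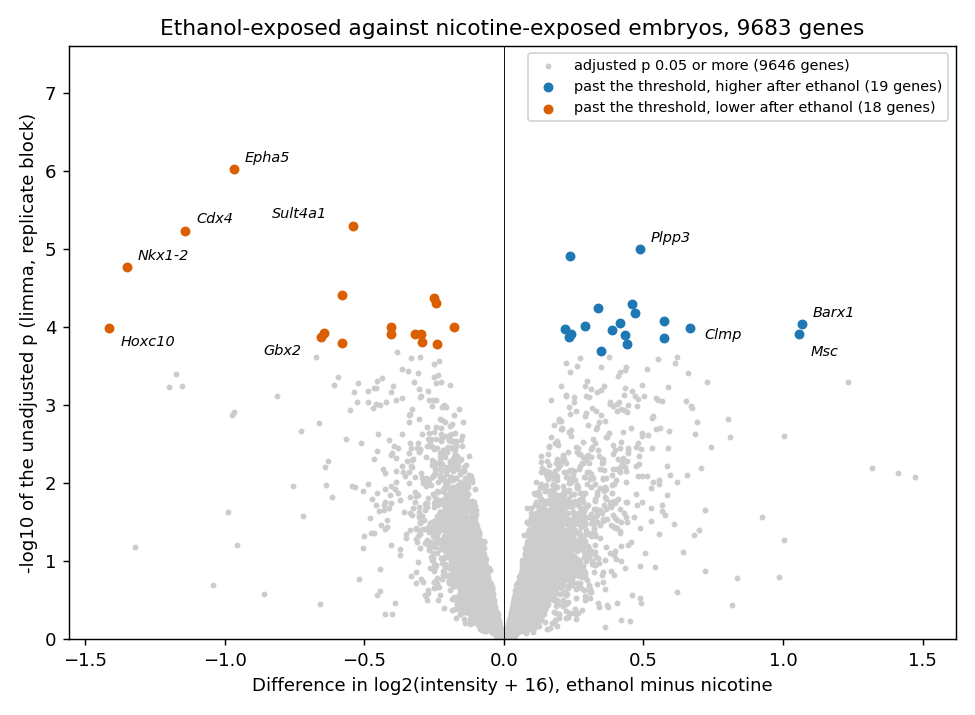
Each point is 1 of 9683 genes, with the difference in log2(intensity + 16), ethanol minus nicotine, on the x axis and -log10 of the unadjusted p from limma with the replicate block on the y axis. The 18 genes past the threshold on the left include Hoxc10 at -1.41 and Nkx1-2 at -1.35, and the 19 on the right include Barx1 at 1.07 and Msc at 1.06.

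The largest differences among the genes that passed belonged to regulators of the growing tail. Cdx4, a caudal-type homeobox factor of the tail bud encoded on the X chromosome, had intensities of 10.6 (lowest), 37.8 (median) and 127.6 (highest) in ethanol-exposed embryos, against 26.5, 114 and 277 in nicotine-exposed embryos. Replicate 3 was the highest embryo of both groups, and most nicotine-exposed embryos lay above the ethanol-exposed median. Cdx4 was 2.20-fold lower than in nicotine-exposed embryos on the log2(intensity + 16) scale, with a difference of -1.14 ± 0.20 (SE, n = 12 embryos per group, 95% confidence interval -1.55 to -0.73, limma adjusted p = 0.0198). In 11 of 12 pairs the ethanol-exposed embryo had the lower value. Control embryos had a median of 47.2.

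Nkx1-2, a homeobox gene expressed where the spinal cord is still being added, had intensities of 5.18, 15.2 and 59.7 in ethanol-exposed embryos, against 6.52, 109 and 158 in nicotine-exposed embryos. The highest ethanol-exposed embryo lay below the nicotine-exposed median, while a few nicotine-exposed embryos were as dim as the ethanol-exposed ones. The difference was -1.35 ± 0.26 (SE, limma adjusted p = 0.0291), with 10 of 12 pairs lower, and a further probe gave -1.01 (adjusted p = 0.0237). The Control median was 27.4.

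Hoxc10, a Hox gene of lumbar levels on chromosome 15, had intensities of 56.6, 201 and 739.5 in ethanol-exposed embryos, against 178, 923 and 1556 in nicotine-exposed embryos. Hoxc10 was lower by 1.41 on the log2 scale (SE 0.31, limma adjusted p = 0.0443), and a further probe gave -1.25 (adjusted p = 0.0419). It was lower in 11 of 12 pairs, the exception being replicate 5, and the group ranges overlapped. The Control median was 287.

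Greb1, a gene known as a cofactor of the oestrogen receptor in human cells, had intensities of 470.5, 621 and 1073 in ethanol-exposed embryos, against 478, 965 and 1525 in nicotine-exposed embryos. The lowest embryos of both groups were at nearly the same level, and the groups parted at the median and above. Its difference was -0.58 ± 0.12 (SE, limma adjusted p = 0.0408), and another probe gave -0.58 (adjusted p = 0.0443).

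**Figure D2:**
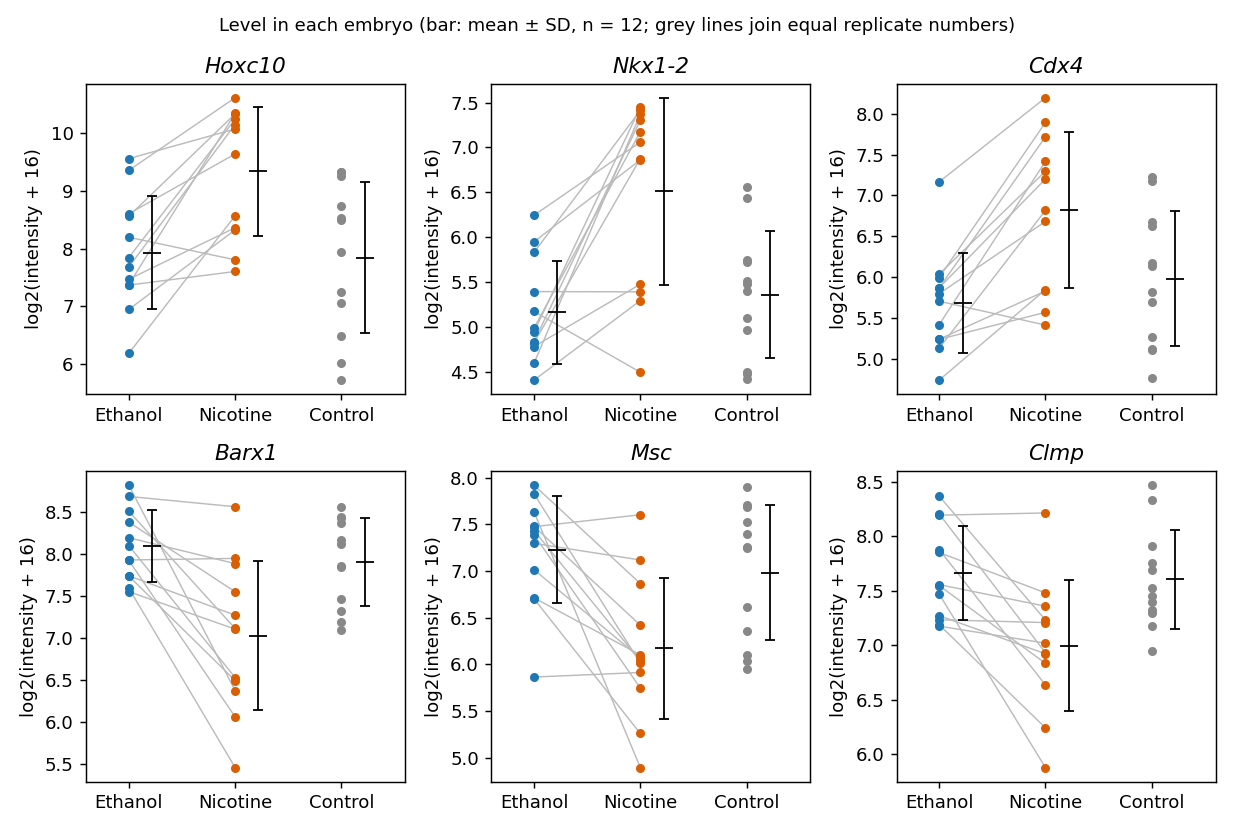
Level of 6 genes in log2(intensity + 16) (y axis) in every embryo of the Ethanol, Nicotine and Control groups (x axis), with the mean ± SD (n = 12) beside each group and grey lines between ethanol-exposed and nicotine-exposed embryos of equal replicate number. Most lines rise towards nicotine for Hoxc10, Nkx1-2 and Cdx4 and descend for Barx1, Msc and Clmp, and the groups overlap for every gene.

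Of a list of 18 tail bud genes, 15 were measured, and 3 of these (Cdx4, Nkx1-2 and Greb1) passed as lower, against 0.186% of all genes. None of the 15 was higher after ethanol, and 14 had an unadjusted p below 0.05 in the lower direction, against 7.69% of all genes. The median difference was -0.58, beside -0.00 over all 9683 genes. The members that did not pass were the homeobox genes Cdx2 (-1.20), Evx1 (-1.15) and Cdx1 (-0.32), the mesoderm factor Tbx6 (-1.17), the ligands Fgf17 (-0.97), Wnt3a (-0.67), Wnt5b (-0.47) and Fgf8 (-0.30), the Wnt enhancer Rspo3 (-0.56), the zinc-finger factors Sp5 (-0.54) and Sp8 (-0.49) and the retinoic acid-degrading enzyme Cyp26a1 (-0.32). Gdf11 did not reach the intensity minimum, and T and Msgn1 were not analysed here. The filter needed 12 bright arrays, which 1 group could supply alone, so the counts describe the measured members and are no test of the list.

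Tbx6, which directs progenitors to paraxial mesoderm, had intensities of 21.9, 61.6 and 271 in ethanol-exposed embryos, against 58.2, 216 and 571 in nicotine-exposed embryos. It was lower in each of the 12 pairs (exact sign-flip permutation test, two-sided p = 0.000488, the smallest that 12 pairs can give). Over all probes Tbx6 missed the threshold (limma adjusted p = 0.0645). The sign-flip p adjusted over the 107 genes so tested was 0.00721. Those genes were chosen with results of these same arrays known, so that value does not stand for a test over all genes. Cdx2 had intensities of 175, 405 and 1096 in ethanol-exposed embryos, against 251, 1426 and 2081 in nicotine-exposed embryos (limma adjusted p = 0.0720). Wnt3a, the ligand that sustains the tail bud, had 175, 382 and 708 in ethanol-exposed embryos, against 396, 672 and 818 in nicotine-exposed embryos (limma adjusted p = 0.0536). For all 3 genes the lower end of the nicotine-exposed range lay inside the ethanol-exposed range.

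The tail bud median was -0.68 within replicates 1 to 6 and -0.57 within replicates 7 to 12. Taken pair by pair it was below 0 in 11 of 12, at -1.69 in replicate 8 and 0.29 in replicate 5. It stayed between -0.65 and -0.52 when any single replicate or array was left out. Fewer tail bud cells and less RNA per cell cannot be told apart in whole embryos. Summed trophoblast markers were lower at the median, at 19.95, 81.1 and 474 in ethanol-exposed embryos and 31.4, 146 and 2878 in nicotine-exposed embryos. The sum was higher after ethanol in 5 of 12 pairs, and the Control median was 346. The part of these markers in the result was not tested. Of 6 trophoblast markers 3 were measured, and Tpbpa stayed below the intensity minimum.

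Most measured Hox genes of the trunk and tail were lower. Of 24 genes of trunk and tail groups 13 were measured and 12 were lower, 9 of them at an unadjusted p below 0.05 against 7.69% of all genes. Hoxc10 alone passed the threshold, against 0.186% of all genes. Their median was -0.43, with -0.68 in replicates 1 to 6 and -0.20 in replicates 7 to 12. Beside Hoxc10 the measured members ran from Hoxd10 (-0.97), Hoxc9 (-0.66), Hoxd9 (-0.54), Hoxc6 (-0.53), Hoxd8 (-0.51), Hoxa9 (-0.43), Hoxa7 (-0.43), Hoxb6 (-0.33), Hoxb9 (-0.28), Hoxb7 (-0.22) and Hoxa13 (-0.10) to Hoxd12 (0.08). Of 10 measured genes of anterior groups 5 were higher and 5 lower, with a median of 0.01 and none past the threshold. Replicates 1 to 6 gave a median of -0.27 and replicates 7 to 12 one of 0.15, and pair by pair it ran between -1.16 and 0.74. The lowest of these was Hoxb1, a hindbrain and tail bud gene, at -0.46 ± 0.15 (SE, limma adjusted p = 0.168). The difference between the lists was not tested.

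Feedback targets of Wnt and Fgf signalling were mostly lower. Axin2, which feeds back on Wnt signalling by promoting the breakdown of beta-catenin, had intensities of 649, 785 and 1144 in ethanol-exposed embryos, against 798, 989 and 1314 in nicotine-exposed embryos. Axin2 was lower by 0.30 on the log2 scale (SE 0.07, limma adjusted p = 0.0443), with the lower value after ethanol in 11 of 12 pairs. Of 17 measured Wnt ligands and feedback genes 15 were lower, with a median of -0.14 (-0.16 in replicates 1 to 6 and -0.20 in replicates 7 to 12). Axin2 was the only member past the threshold, against 0.186% of all genes. At an unadjusted p below 0.05, 7 members were lower, against 7.69% of all genes, and 1 was higher, against 7.33%. The Wnt inhibitor Dkk1 was at -0.28 ± 0.09 (SE, limma adjusted p = 0.164). Of 11 measured Fgf ligands and genes induced by the ERK kinases 10 were lower, with a median of -0.28, and none passed. Replicates 1 to 6 gave a median of -0.41 and replicates 7 to 12 one of -0.09, and the list median was above 0 in 3 of 12 pairs. Among them Dusp5, a phosphatase of ERK, was at -0.32 ± 0.08 and Dusp4 at -0.36 ± 0.10 (SE, limma adjusted p = 0.0696 and 0.0793).

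The letters before the start sites of Cdx4 and Axin2 are shown because both genes passed as lower. Both are known targets of Wnt signalling, which acts through TCF/LEF factors. Each run is the 250 bases before the annotated start, 5′ to 3′ on the gene's strand (RefSeq, GRCm38.p6), at chrX:103321148-103321397 on the plus strand for Cdx4 and chr11:108920099-108920348 on the plus strand for Axin2. No capitals are used, since neither window held a searched motif.
Cdx4: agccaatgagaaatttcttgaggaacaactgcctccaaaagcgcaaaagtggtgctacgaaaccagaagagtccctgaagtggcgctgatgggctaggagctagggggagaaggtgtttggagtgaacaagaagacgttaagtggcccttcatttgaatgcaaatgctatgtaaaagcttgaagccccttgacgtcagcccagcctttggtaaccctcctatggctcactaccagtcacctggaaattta
Axin2: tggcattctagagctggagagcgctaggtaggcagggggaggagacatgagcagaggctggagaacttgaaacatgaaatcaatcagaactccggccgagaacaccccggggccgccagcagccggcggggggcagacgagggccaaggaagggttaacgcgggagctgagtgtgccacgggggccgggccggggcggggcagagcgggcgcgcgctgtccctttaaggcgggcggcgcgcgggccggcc
The core motif TCAAAG of TCF/LEF factors was searched on both strands and occurred in 13.8% of 32851 windows of this length. Of the 18 lower genes 14 had a window in the table and 1 (Cenps) held the motif, and of the 19 higher genes 14 had one and 2 (Nfic and Nr2f2) held it. A gene was counted if any of its windows held the motif, whereas the background is a share of windows. The 14 lower genes had 15 windows and the 14 higher genes 19. TTTATNG, a motif of Cdx factors in which N is any base, occurred in 9.81% of all windows, in none of the 14 lower genes and in 1 of the 14 higher genes (Ppfibp2). Neither motif contains the other, and a missing match says only that these letters are not in the window.

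Of the other genes that passed as lower, several are known from the developing nervous system. Epha5, a receptor for ephrins that guides axons, had intensities of 7.32, 13.1 and 43.1 in ethanol-exposed embryos, against 8.76, 55.0 and 103 in nicotine-exposed embryos. Its median after ethanol was below the intensity minimum of 32, and the nicotine-exposed embryos spread from that level upward. The difference was -0.97 ± 0.15 (SE, limma adjusted p = 0.0125), lower in 11 of 12 pairs. Gbx2, a homeobox gene that sets the boundary of midbrain and hindbrain, had intensities of 543, 691 and 1428 in ethanol-exposed embryos, against 768, 1258 and 1645 in nicotine-exposed embryos, a difference of -0.66 ± 0.15 (SE, limma adjusted p = 0.0443). Sult4a1, a sulfotransferase family member of the brain, had intensities of 113, 148 and 198 in ethanol-exposed embryos, against 163, 213 and 508 in nicotine-exposed embryos. It was lower in 12 of 12 pairs, at -0.54 ± 0.09 (SE, limma adjusted p = 0.0198).

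Regular differences, some of them small, marked a further group. Wfikkn1, a secreted protein with protease inhibitor domains, had intensities of 312, 471 and 567 in ethanol-exposed embryos, against 410.1, 597 and 723 in nicotine-exposed embryos. Rrp9, a component of the machinery that processes ribosomal RNA precursors, had 593, 665.5 and 832 in ethanol-exposed embryos, against 601, 829 and 1027 in nicotine-exposed embryos. These genes were lower by 0.32 and 0.25 on the log2 scale, and each was lower in 12 of 12 pairs, as were Fam131b (-0.58) and Gprc5a (-0.40). A further probe of Gprc5a gave -0.26 and did not pass (limma adjusted p = 0.338). The remaining lower genes named by size were Arhgap24, an inactivator of Rac GTPases (-0.64), Dgkk, a diacylglycerol kinase (-0.40), and Orc1, a subunit of the origin recognition complex (-0.29), and a further probe of Dgkk gave -0.26 and did not pass (limma adjusted p = 0.276). For Mllt3 the brightest probe did not pass (-0.16), whereas another probe did (-0.49, limma adjusted p = 0.0125), and its other probes stood at 0.28 and -0.17, so the probes of Mllt3 disagree.

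Among the genes that passed as higher, those with the largest differences are known from the branchial arches. Barx1, a homeobox gene of jaw and stomach mesenchyme on chromosome 13, had intensities of 172, 243 and 436.5 in ethanol-exposed embryos, against 28.0, 122 and 363 in nicotine-exposed embryos. The ethanol-exposed embryos kept to a narrow band, and the nicotine-exposed ones reached from that band to far below it. Barx1 was 2.10-fold higher than in nicotine-exposed embryos, with a difference of 1.07 ± 0.23 (SE, 95% confidence interval 0.59 to 1.54, limma adjusted p = 0.0443). It was higher in 11 of 12 pairs, and a further probe gave 1.05 (adjusted p = 0.0408). The Control median was 239.

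Msc, which encodes the repressor musculin of branchial muscle precursors, had intensities of 42.3, 154 and 226 in ethanol-exposed embryos, against 13.8, 50.5 and 178 in nicotine-exposed embryos. Its difference was 1.06 ± 0.23 (SE, limma adjusted p = 0.0443), with 10 of 12 pairs higher and a Control median of 137. The ranges overlapped, but the nicotine-exposed median was close to the lowest ethanol-exposed embryo. Twist2, a helix-loop-helix factor of mesenchyme, had intensities of 502, 751 and 822 in ethanol-exposed embryos, against 400.4, 488 and 870.4 in nicotine-exposed embryos. Its difference was 0.41 ± 0.09 (SE, limma adjusted p = 0.0443). Nr2f2, a nuclear receptor of mesenchyme and veins, had intensities of 188, 328 and 465 in ethanol-exposed embryos, against 122, 261 and 432 in nicotine-exposed embryos. Its difference was 0.34 ± 0.07 (SE, limma adjusted p = 0.0417), with 0.47 in replicates 1 to 6 and 0.21 in replicates 7 to 12. Its other probes gave 0.06 and 0.39 and did not pass.

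Of 13 measured branchial arch genes 10 were higher, with a median of 0.18 (0.29 in replicates 1 to 6 and 0.10 in replicates 7 to 12), and Barx1 and Nr2f2 passed, against 0.196% of all genes. Dlx1, a homeobox gene of the arches and forebrain, had intensities of 115, 301 and 424 in ethanol-exposed embryos, against 81.0, 179.6 and 288 in nicotine-exposed embryos, but did not pass (0.59 ± 0.18 SE, limma adjusted p = 0.148). Of 13 measured neural crest genes 10 were higher, with a median of 0.17 (0.20 in replicates 1 to 6 and 0.12 in replicates 7 to 12). Twist2 passed the threshold, against 0.196% of all genes. At an unadjusted p below 0.05, 5 members were higher, against 7.33% of all genes, and 1 was lower, against 7.69%. Snai2, a factor of crest emigration, was at 0.33 ± 0.09 (SE, limma adjusted p = 0.0903), and Tfap2b, which specifies crest, at 0.13 ± 0.10 (SE, limma adjusted p = 0.585), with 0.15, 0.11 and -0.01 on its other probes.

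The other genes that passed as higher include several of the cell surface and matrix. Clmp, an adhesion molecule, had intensities of 128.4, 172 and 315 in ethanol-exposed embryos, against 42.7, 109.8 and 281 in nicotine-exposed embryos, a difference of 0.67 ± 0.15 (SE, limma adjusted p = 0.0443). Adam12, a metalloprotease, stood at 0.57 and Col26a1, a collagen, at 0.57, the collagen with 1186, 2142 and 2770 in ethanol-exposed embryos, against 749.9, 1314 and 2193 in nicotine-exposed embryos. Plpp3, a phosphatase of lipid signals, had 1953, 2504 and 3454 in ethanol-exposed embryos, against 1015, 1967 and 2892 in nicotine-exposed embryos. Its difference was 0.49 ± 0.09 (SE, limma adjusted p = 0.0237), with 0.54 on another probe (adjusted p = 0.0408). In each of these genes the lowest embryo was a nicotine-exposed one.

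The remaining higher genes named by size were the transcription factor Nfic (0.47), Zcchc24 (0.46), the liprin Ppfibp2 (0.44), the netrin Ntn3 (0.43), the RNA-binding protein Bicc1 (0.39), Evi5l (0.35) and Apbb2 (0.29). The probes of Bicc1 disagreed, the others giving 0.43, 0.29 and -0.04 without passing, and the other probe of Ntn3 gave 0.25 and did not pass. The second probe of Ppfibp2 passed at 0.59.

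**Figure D3:**
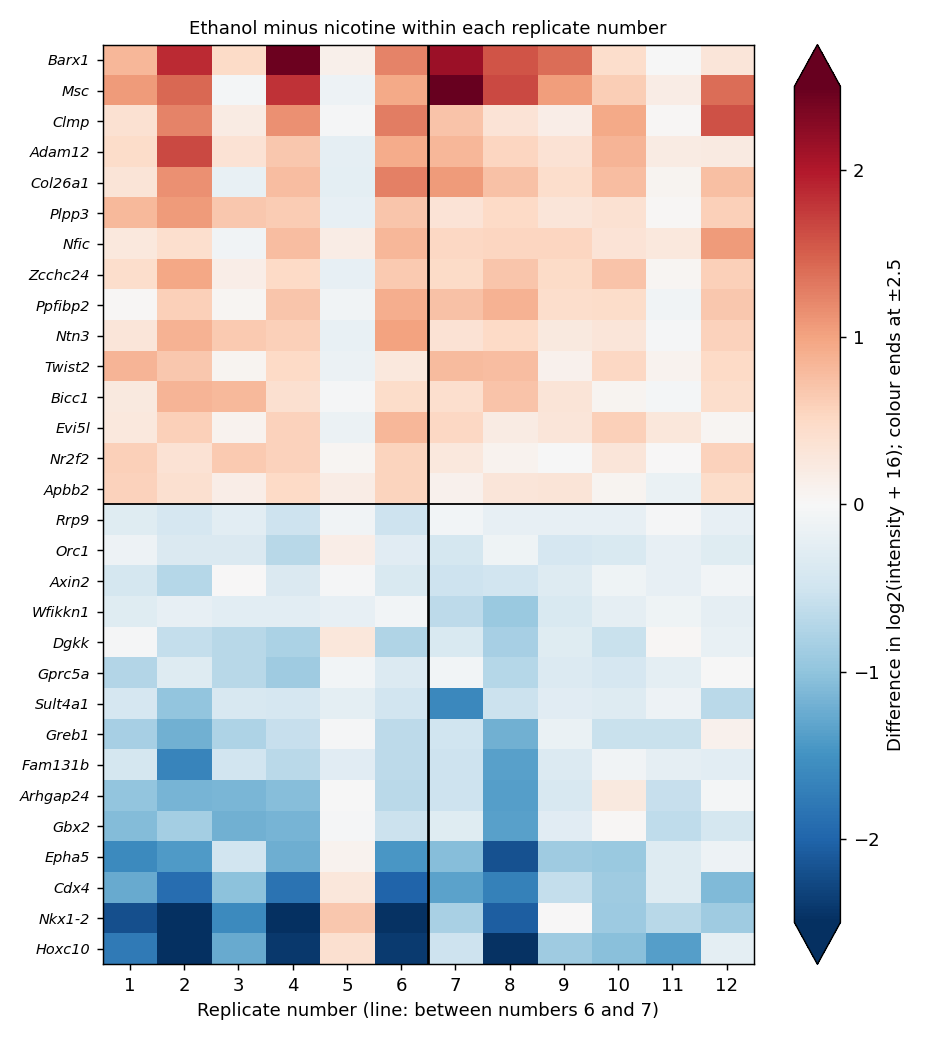
Difference in log2(intensity + 16), ethanol minus nicotine, within each replicate number (columns) for the 15 higher and 15 lower genes of largest size past the threshold (rows, higher genes on top). Red marks higher and blue lower after ethanol. Replicate 5 is pale or of the opposite colour for most genes, and replicates 2, 4, 6 and 8 are among the deepest in colour.

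The heat map of pair differences shows that the pairs did not contribute alike. In replicate 5 the Nicotine embryo was the lowest of its group for Cdx4, Nkx1-2, Epha5, Gbx2 and Cdx2 and the highest for Barx1, Msc, Clmp, Adam12, Nfic and Twist2. Leaving out that Nicotine embryo alone raised the count of probes past the threshold to 148, and leaving out the Ethanol embryo of the same number raised it to 189. No probe passed a test of the difference between the sets (interaction term in limma, 0 of 16927 at an adjusted p below 0.05, 765 or 4.52% at an unadjusted p below 0.05). Within replicates 1 to 6 alone, and within replicates 7 to 12 alone, 0 probes passed, with 1565 and 1470 at an unadjusted p below 0.05.

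The measured members of the matrix and endothelial lists all had higher means after ethanol, and none of them passed the threshold. Each of 20 measured extracellular matrix genes was higher, 12 at an unadjusted p below 0.05 against 7.33% of all genes, with a median of 0.28 (0.36 in replicates 1 to 6 and 0.16 in replicates 7 to 12). Lamc3, a laminin chain, had intensities of 24.9, 50.5 and 93.9 in ethanol-exposed embryos, against 10.0, 17.4 and 69.9 in nicotine-exposed embryos (0.73 ± 0.18 SE, limma adjusted p = 0.0696). Pcolce, which enhances collagen processing, was at 0.48 ± 0.13 (SE, limma adjusted p = 0.0795). The matrix list median was above 0 in 11 of 12 pairs.

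Each of 18 measured endothelial genes was also higher, 11 at an unadjusted p below 0.05 against 7.33% of all genes, with a median of 0.34 (0.32 in replicates 1 to 6 and 0.41 in replicates 7 to 12). The list median was above 0 in 8 of 12 pairs and ran between -0.59 in replicate 3 and 1.34 in replicate 2. Robo4, a guidance receptor of vessels, was at 0.71 ± 0.24 and Emcn, an endothelial surface sialomucin, at 0.53 ± 0.17 (SE, limma adjusted p = 0.183 and 0.148). Of 11 measured Hedgehog pathway genes 10 were higher, with a median of 0.31 (0.28 in replicates 1 to 6 and 0.33 in replicates 7 to 12) and none past the threshold. Foxf1, a Hedgehog target of gut and lung mesenchyme, had intensities of 39.4, 141 and 191 in ethanol-exposed embryos, against 14.3, 89.4 and 169 in nicotine-exposed embryos (0.62 ± 0.15 SE, limma adjusted p = 0.0536).

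**Figure D4:**
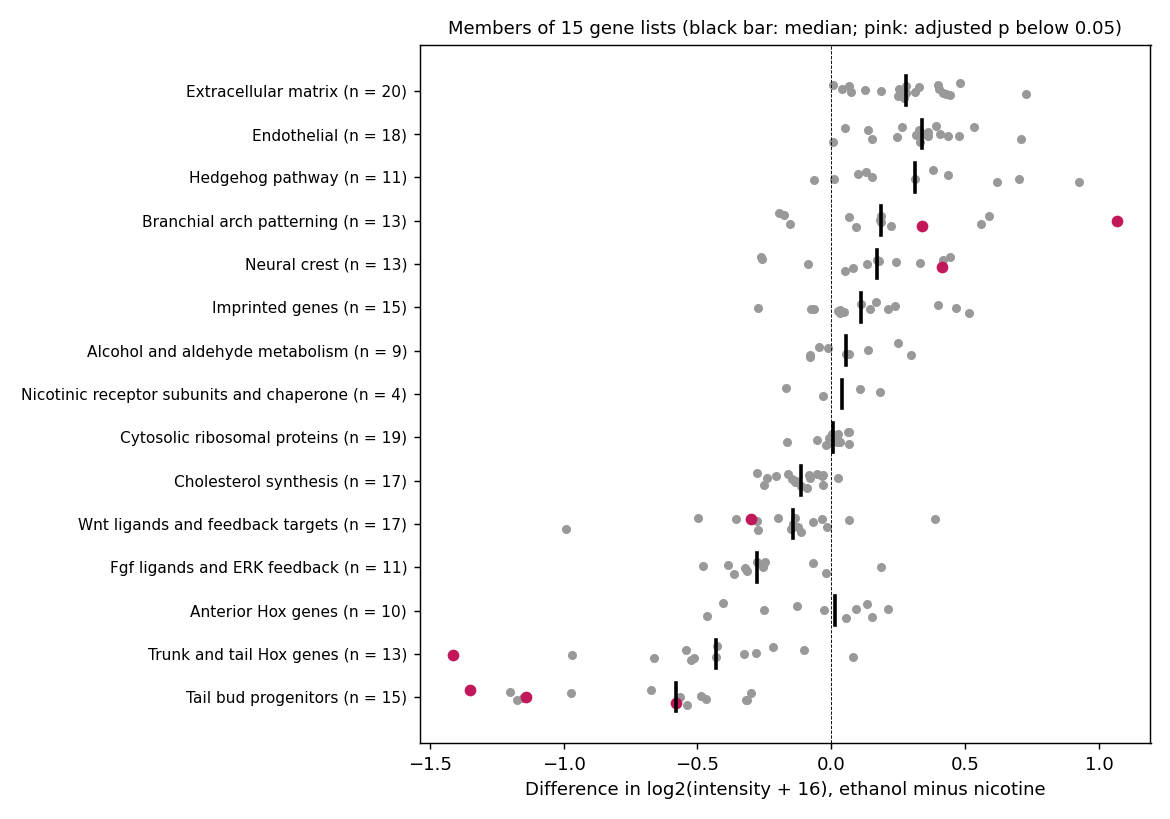
Each point is a measured gene of 1 of 15 lists (rows), placed by its difference in log2(intensity + 16), ethanol minus nicotine (x axis). Black bars are list medians and pink points have an adjusted p below 0.05. The tail bud median lies at -0.58 and the trunk and tail Hox median at -0.43, while the endothelial and matrix medians lie at 0.34 and 0.28 and ribosomal genes close to 0.

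Genes that handle the drugs showed no member past the threshold. Of 9 measured genes of alcohol and aldehyde metabolism 5 were higher and 4 lower, with a median of 0.05. Aldh2, the mitochondrial enzyme that clears acetaldehyde, had intensities of 2174, 2683 and 2939 in ethanol-exposed embryos, against 1755, 2432 and 2776 in nicotine-exposed embryos (0.14 ± 0.05 SE, 95% confidence interval 0.04 to 0.23, limma adjusted p = 0.183). Adh5 was at 0.07 (interval -0.13 to 0.26) and Adh1 at -0.01 (interval -0.26 to 0.23). Acss1, which activates acetate in mitochondria, was at 0.30 (interval 0.01 to 0.58, limma adjusted p = 0.346).

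Of 17 nicotinic receptor subunits and their chaperone 4 were measured, with a median of 0.04. Chrna3 had intensities of 14.2, 26.6 and 50.7 in ethanol-exposed embryos, against 11.2, 21.1 and 38.5 in nicotine-exposed embryos, and Chrna4 70.45, 117 and 219 in ethanol-exposed embryos, against 56.5, 114 and 210.3 in nicotine-exposed embryos. The groups covered nearly the same range for both, with intervals of the difference between -0.17 and 0.53 for Chrna3 and between -0.27 and 0.49 for Chrna4. Ric3, which helps receptors assemble, was at -0.17 (interval -0.34 to 0.00). In the retinoic acid pathway, of 10 measured genes 6 were higher, with a median of 0.07 (-0.03 in replicates 1 to 6 and 0.12 in replicates 7 to 12) and none past the threshold. The members at an unadjusted p below 0.05 were both lower after ethanol, the synthesising enzyme Aldh1a3 at -0.35 ± 0.17 and the binding protein Crabp2 at -0.21 ± 0.10 (SE, limma adjusted p = 0.346 and 0.353). Another synthesising enzyme, Aldh1a2, was at 0.23 ± 0.16 (SE, limma adjusted p = 0.548).

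Genes of cholesterol synthesis were lower in 16 of 17 measured members, with a median of -0.11 (-0.10 in replicates 1 to 6 and -0.12 in replicates 7 to 12) and none past the threshold by the brightest probe. Mvd, which decarboxylates mevalonate diphosphate, was at -0.25 ± 0.06 and Lss, lanosterol synthase, at -0.24 ± 0.07 (SE, limma adjusted p = 0.0665 and 0.139), though another probe of Lss gave 0.02. Of 15 measured imprinted genes 12 were higher, with a median of 0.11 (0.15 in replicates 1 to 6 and 0.06 in replicates 7 to 12), and the list median was above 0 in each of the 12 pairs. It ran between 0.01 in replicate 12 and 0.40 in replicate 2, and in replicates 5, 6, 7, 9, 10, 11 and 12 it was at most 0.063. Peg3, a paternally expressed zinc-finger gene, had intensities of 3853, 5160.1 and 6816 in ethanol-exposed embryos, against 2195, 3831 and 5418 in nicotine-exposed embryos (0.51 ± 0.12 SE, limma adjusted p = 0.0611). Cdkn1c, a maternally expressed inhibitor of the cell cycle, was at 0.21 ± 0.07 (SE, limma adjusted p = 0.168). In the pluripotency and Lin28 list 5 of 9 measured genes were lower, each at an unadjusted p below 0.05 against 7.69% of all genes, among them Sall4 (-0.26) and the DNA methyltransferase Dnmt3b (-0.17), and none passed.

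Other cell types differed less regularly. Of 19 measured heart muscle genes 17 were higher, with a median of 0.23 and none at an unadjusted p below 0.05. This rested on 1 array, the Nicotine embryo of replicate 3, whose summed heart markers were 861 against a group median of 15965, and without it the median was -0.14. Of 16 measured yolk sac and liver bud genes 15 were higher, with medians of -0.10 in replicates 1 to 6 and 0.95 in replicates 7 to 12, and 1 had an unadjusted p below 0.05. The 3 measured placental and maternal genes were lower, with a median of -0.95. Prl2c2, a placental hormone, reached 278 at most in ethanol-exposed embryos, against 1585 in the Nicotine embryo of replicate 6 (limma adjusted p = 0.577). Of 12 measured neuronal genes 8 were higher, with a median of 0.20, and Dcx, of migrating neurons, was at 0.66 ± 0.23 (SE, limma adjusted p = 0.198). Of 11 measured neural progenitor and brain patterning genes 6 were lower (median -0.02 in replicates 1 to 6 and -0.34 in replicates 7 to 12). Among these Gbx2 passed the threshold, against 0.186% of all genes, and Otx1, a forebrain and midbrain gene, was at -0.64 ± 0.23 (SE, limma adjusted p = 0.222).

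The list medians of general cell functions stood near 0, while single members lay further out. The list medians were 0.01 for 19 ribosomal proteins, -0.02 for 26 genes of oxidative phosphorylation, 0.02 for 23 of cell cycle and replication, -0.03 for 15 heat shock genes, 0.01 for 18 of the unfolded protein response, 0.00 for 22 antioxidant genes, 0.01 for 16 p53 targets and -0.07 for 18 of glycolysis and hypoxia. None of these lists had a gene past the threshold. Of the 18 glycolysis and hypoxia genes 14 were lower and 4 higher, and Egln3 was at -0.40 (limma adjusted p = 0.0719). Fas of the p53 list was at 0.47 and Mt1 of the antioxidant list at 0.42 (limma adjusted p = 0.148 and 0.173). No gene passed among 13 immediate early genes (median 0.00), 13 BMP pathway genes (-0.03), 11 genes of Notch and the segmentation clock (-0.07) and 11 of DNA methylation and one-carbon metabolism (-0.04). Medians were further from 0, again with no gene past the threshold, for 8 somite genes (0.20, with -0.01 in replicates 1 to 6 and 0.42 in replicates 7 to 12), 13 primitive erythroid genes (0.23) and 4 macrophage genes (0.37). Of the macrophage genes 3 were higher and 1 lower, and Laptm5 was at 0.54 ± 0.16 (SE, limma adjusted p = 0.122). The Y-linked genes Eif2s3y and Kdm5d had intensities of at least 152.9 and 59.4 in every embryo of these groups, with differences of -0.10 and 0.04.

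Set beside the Control group, the tail bud list had a median of -0.08 for Ethanol minus Control and 0.51 for Nicotine minus Control. These comparisons share the Control embryos and also share their arrays with the difference described above. For Cdx4 the values were -0.30 and 0.84 (limma adjusted p = 0.990 and 0.0345), for Hoxc10 0.08 and 1.497 (0.995 and 0.0215), and for Axin2 -0.00 and 0.30 (0.999 and 0.0273). For Barx1 they were 0.19 and -0.87 (0.990 and 0.0577), and for Plpp3 0.01 and -0.48 (0.999 and 0.0158). With the same block 0 of 16927 probes passed for Ethanol minus Control, with 784 (4.63%) at an unadjusted p below 0.05, and 194 (1.15%) passed for Nicotine minus Control.

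Ethanol-exposed embryos were also more alike than nicotine-exposed ones. The squared deviation of an embryo from the mean of its group and set, averaged over 16927 probes, was 0.0414 (lowest), 0.0520 (median) and 0.199 (highest) in ethanol-exposed embryos, against 0.0399, 0.0718 and 0.238 in nicotine-exposed embryos. It was larger after ethanol in 1 of 12 pairs, with a mean log2 ratio of -0.51 (exact sign-flip permutation test over pairs, two-sided p = 0.00293). Replicate 6 was highest in both groups, and Control embryos had a median of 0.0732. Of 9683 genes 64.9% had the larger SD within sets after nicotine. For heart muscle genes the median SD was 0.394 in ethanol-exposed embryos and 1.56 in nicotine-exposed embryos, and the nicotine-exposed set includes the array low in heart markers.

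**Figure D5:**
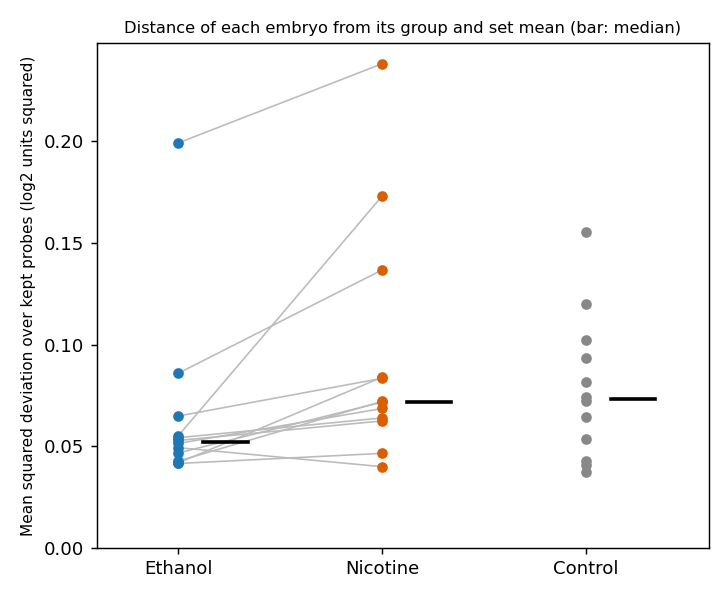
Mean squared deviation of each embryo from the mean of its group and set over 16927 probes (y axis, log2 units squared) in the Ethanol, Nicotine and Control groups (x axis), with black bars at the medians and grey lines between ethanol-exposed and nicotine-exposed embryos of equal number. All lines but 1 rise towards nicotine, and the medians are 0.0520, 0.0718 and 0.0732.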

How the data were processed

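Each of 36 embryos was measured on 1 Illumina array. The authors deposited intensity values on a linear scale, and the submitters' processing notes name GenomeStudio 1.9.0. How background was corrected and arrays normalized is not given in the sources used here; array medians were 10.7 to 10.8, and every array had a mean of 357.7. A further table has 72 columns that match no sample label and were not used. Gene symbols came from the platform annotation.

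The deposited intensity was turned into log2(intensity + 16) without further normalization, and 16927 of 45281 probes with an intensity of at least 32 on at least 12 arrays were kept. Of these 14690 had 1 symbol, covering 9683 genes, each read by its kept probe of highest mean. Detection p-values were not usable, as their columns match no sample. All 36 arrays were fitted with limma 3.58.1 in R 4.3.3 (lmFit, eBayes), two-sided, with the replicate number as a fixed block, 22 residual degrees of freedom and Benjamini-Hochberg adjustment over kept probes. The number of arrays limits the precision. Pairing was checked on the data: once group means were subtracted, the Ethanol and Nicotine arrays of equal number had correlations over 0.1 for each of the 12 numbers (mean 0.624), but after the set means were removed in 7 of 12 (mean 0.171, lowest -0.11). Of the 12 Ethanol arrays 2, and of the 12 Nicotine arrays 5, correlated best with the array of their own number. After the set means were removed these counts were 2 and 4. The labels do not say what a number stands for.

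Named genes were the up to 15 higher and 15 lower genes of largest difference past the threshold, from each list described up to 4 members past it and the 2 with the smallest p, and genes of alcohol and nicotine biology, sex and earlier interest. Other genes are named only where all measured members of a list are given. Members and the 37 lists were chosen with earlier results of these data known, so lists get counts and medians and no test. On simulated data for this comparison, with 50 of 16927 probes changed at each size, 76% of changes of 0.4, 88% of 0.6, 96% of 1 and 100% of 1.5 were recovered, with 8 false calls among 16727 unchanged probes. The simulated noise was normal and independent between probes, and the replicate block was true by construction. These rates check the code and need not hold for the real arrays. Single values were tested with exact sign-flip permutation over the 12 pairs. Alternatives to the block, the arrays, the pseudocount, the filter and the normalization are in the closing section. Promoter windows came from RefSeq (GRCm38.p6).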

Additional observations from a re-analysis of the deposited data

How the results depend on the processing

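The direction of the 69 probes past the threshold held in every alternative in which they were measured, but their number did not. Groups and replicate numbers are balanced, so a change of block, or the 24 arrays alone, leaves the mean difference unchanged. Its sign could not turn there. The fits on fewer arrays reuse the arrays on which the probes were chosen, so the kept sign is no separate support. Against 69 with the replicate block, 0 passed without the replicate block and 0 with the 2 sets as the block (smallest adjusted p 0.131 and 0.0636). With the block on the 24 arrays of these groups alone 0 passed, 150 with the replicate number as a random block, 156 with arrayWeights, 9 with a pseudocount of 1 and 10 with no filter on intensity. Within replicates 1 to 6 and within replicates 7 to 12, 0 and 0 passed. A pseudocount of 64, a higher intensity minimum and cyclic loess gave 91, 62 and 68. Leaving out 1 replicate number gave 0 to 178, with 0 without 2, 6 or 8, 3 without 4, 8 without 9, 9 without 1, 11 without 12, 31 without 3, 32 without 7, 41 without 10, 103 without 11 and 178 without 5. Leaving out single arrays, added after seeing the data, gave 3 to 189 for Ethanol arrays and 3 to 148 for Nicotine arrays. The cause of these shifts was not tested. No named gene past the threshold changed direction. Signs near 0 turned for Tfap2b (-0.00204), Adh1 (0.129) and Adh5 (-0.00289) within replicates 7 to 12 and for Aldh1a2 (-0.0208), Chrna3 (-0.0923) and Kdm5d (-0.0602) within replicates 1 to 6, and over fits without single replicates or arrays the differences ran from -0.0984 to 0.0770 for Adh1, from -0.0218 to 0.103 for Adh5 and from -0.0355 to 0.0992 for Kdm5d. The retinoic acid list median turned to -0.21 at the higher intensity minimum. The difference in spread kept its direction and call throughout, with a log2 ratio of -0.59 to -0.38 without single replicates and -0.30 around the group mean alone. The count of 0 for the difference between sets stayed 0, with 459 to 989 probes at an unadjusted p below 0.05. Background correction of raw signals and slide as a block were not run, because their columns match no sample label and no slide is given. Without the replicate block none of the 30 named genes past the threshold passed.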
